A study of Homo sapiens with 6 samples.

Results

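Genes that mark monocytes and macrophages were followed in Kasumi-1, a human acute myeloid leukaemia cell line. The set was chosen by name and held 9 genes: CD14, CD163, CD68, LYZ, LGALS3, ITGAM, ITGAX, FCGR2A and CD86. Of the 27576 genes in the deposited expression table, 8 were members, since CD68 had no row. Of the 9, 6 passed the filter on low values, which asked for at least 1 normalised read in at least 3 libraries, and could be tested. The study compared 3 RNA-seq libraries of cells exposed to 10 ng/ml of recombinant human interleukin-10 (IL-10) with 3 libraries of control cells given 0.5% bovine serum albumin (BSA), both for 72 h. All cells were grown in RPMI1640 with 20% fetal bovine serum and carry, as a property of the line, the t(8;21) fusion of RUNX1 with RUNX1T1. Both groups come from the same cell line, and the labels do not say that the libraries came from separate cultures, so the tests measure only the spread between these libraries, which may be technical.

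Monocytes arise from myeloid progenitors under transcription factors such as PU.1, encoded by SPI1, and the C/EBP family, and they mature into macrophages in tissues. On the way they gain receptors for bacterial products and immune complexes, integrins for adhesion, lysosomal proteins and costimulatory molecules. The fusion protein of t(8;21) leukaemia is known to hold cells at an immature stage with granulocytic features. In human blood monocytes IL-10 is known to raise CD163 and to lower CD86, acting through its receptor and STAT3.

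Library facts touch several of the results. Recovered depth was 20750115 to 23077693 reads in the IL-10 libraries and 22429270 to 24222897 reads in the control libraries. On the first principal component, with 75.4% of the variance, IL-10 replicate 2 scored 59.0 and the remaining 5 libraries scored between -23.6 and 11.5. In that library the deviation of a gene from the other libraries followed its GC content across genes (Spearman rho 0.771, 11576 genes, which are not independent replicates). In the other 5 libraries, each set against a mean that includes IL-10 replicate 2, rho was -0.630 to -0.207. Same-numbered libraries of the 2 groups deviated together. Both replicate 2 libraries were high in liver genes such as TF and APOA2, but each was the lowest of its group in SERPINA1. RUNX1T1, the fusion partner, had 3835, 3071 and 3874 normalised reads in IL-10 replicates 1, 2 and 3, against 3878, 3650 and 3840 in control replicates 1, 2 and 3. Of the receptor chains, IL10RA, which binds IL-10, had 12.8, 15.3 and 20.9 normalised reads in the IL-10 libraries and 14.9, 4.97 and 13.3 in the control libraries, while IL10RB had 491.6, 476 and 569.9 against 502, 402 and 597.

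None of the 6 tested markers passed the test for a difference with IL-10. In limma, with p adjusted over all 21946 genes tested, 0 of 6 markers were past the threshold of 0.05, beside a share of 0% of all genes. At an unadjusted p under 0.05 the markers again numbered 0, beside 344 genes (1.57%). The IL-10 and control libraries overlapped in 6 of 6 markers. They did not overlap in 5.87% of all genes (2.85% higher and 3.02% lower with IL-10). With shares this small, counts over 6 markers do not set them apart from other genes. The markers' median log2 fold change was -0.09, with 3 above 0 and 3 below, beside 0.02 over all genes. edgeR and DESeq2 on the recovered reads also placed 0% of all genes past the threshold, and 1.17% and 0.428% at an unadjusted p under 0.05. These are bulk libraries, in which fewer cells of a type and less RNA per cell cannot be told apart.

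CD14 and CD163, surface receptors of mature monocytes and macrophages, were at the floor of detection. CD14 (ENSG00000170458, chromosome 5, 140631728 to 140633701, minus strand, GRCh38), the co-receptor that hands bacterial lipopolysaccharide to TLR4, had 0, 1 and 0 reads in IL-10 replicates 1, 2 and 3, against 0, 1 and 3 reads in control replicates 1, 2 and 3. CD163 (ENSG00000177575, chromosome 12, 7470813 to 7503893, minus strand), the scavenger receptor for haemoglobin bound to haptoglobin, had 2, 0 and 0 reads in the IL-10 libraries and 1, 1 and 1 in the control libraries. Both genes therefore stayed at or under 3 reads in every library, the upper limit that a count of 0 allows, which equals 2.67 to 3.53 normalised reads and covers counting error only. No fold change is given for either gene, neither entered the test, and a difference between the groups was not detectable at this depth. CD163L1, the near copy of CD163 whose annotated exons share 38 bases with it, had no row.

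CD68 (ENSG00000129226, chromosome 17, 7579467 to 7582113, plus strand), which encodes the macrophage lysosomal protein macrosialin, was not analysed here. By the rule that chose the markers, a gene with no row counts as not detected, and the table held no row with fewer than 2 reads in all. The annotation places 1789 of the 2189 exon bases of CD68 under a second transcript of the same strand, AC016876.2, which also had no row. AC016876.1, which overlaps 150 of its bases on the other strand, had 34.2, 56.4 and 59.8 normalised reads in the IL-10 libraries and 55.9, 27.8 and 63.2 in the control libraries. Whether the counting used strand is not given in the sources used here, so no level of CD68 can be read from that neighbour.

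The start-site windows of 4 markers are shown to set the 2 receptors at the floor, CD14 and CD163, beside FCGR2A and CD86, the most abundant markers for which a window was at hand. Each window is the RefSeq sequence (GRCh38.p14) of 300 bases, with 250 before and 50 after an annotated start, written 5′ to 3′ on the strand of the gene. Capitals mark GAGGAA or its reverse complement TTCCTC, the core that PU.1 is known to bind. The windows are chr5:140633126-140633425 (minus strand) for CD14, chr12:7503728-7504027 (minus strand) for CD163, chr1:161505207-161505506 (plus strand) for FCGR2A and chr3:122055112-122055411 (plus strand), the more upstream of 2, for CD86.
CD14: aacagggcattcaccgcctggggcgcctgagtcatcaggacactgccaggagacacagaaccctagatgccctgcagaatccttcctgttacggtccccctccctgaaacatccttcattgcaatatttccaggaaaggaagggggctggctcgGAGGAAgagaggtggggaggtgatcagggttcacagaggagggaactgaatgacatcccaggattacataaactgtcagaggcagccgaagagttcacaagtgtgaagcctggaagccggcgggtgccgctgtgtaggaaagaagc
CD163: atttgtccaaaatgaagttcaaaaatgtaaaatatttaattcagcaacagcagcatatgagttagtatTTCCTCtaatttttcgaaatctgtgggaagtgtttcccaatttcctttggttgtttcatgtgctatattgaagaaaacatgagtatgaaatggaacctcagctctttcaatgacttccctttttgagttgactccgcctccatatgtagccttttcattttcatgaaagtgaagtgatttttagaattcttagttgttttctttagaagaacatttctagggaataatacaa
FCGR2A: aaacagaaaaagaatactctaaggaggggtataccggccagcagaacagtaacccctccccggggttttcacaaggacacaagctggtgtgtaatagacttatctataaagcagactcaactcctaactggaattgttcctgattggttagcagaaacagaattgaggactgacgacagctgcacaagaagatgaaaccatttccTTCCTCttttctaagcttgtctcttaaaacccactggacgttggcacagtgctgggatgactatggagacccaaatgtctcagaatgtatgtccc
CD86: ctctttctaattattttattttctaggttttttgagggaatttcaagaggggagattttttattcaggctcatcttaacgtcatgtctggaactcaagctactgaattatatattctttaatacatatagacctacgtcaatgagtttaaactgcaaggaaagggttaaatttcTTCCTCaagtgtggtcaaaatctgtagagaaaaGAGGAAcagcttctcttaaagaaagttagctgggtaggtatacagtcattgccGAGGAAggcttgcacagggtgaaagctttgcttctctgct

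Of the 9 markers, 7 matched a RefSeq window, 8 windows in all, and LYZ and ITGAX matched none. GAGGAA on either strand was present for 6 of the 7 markers with a window, in 6 of 8 windows, beside 27.9% of 35116 RefSeq windows of the same length. Its first base lay at -96 from the start in CD14, at -182 in CD163 and at -45 in FCGR2A, and CD86 held it at -76, -43 and 11. Windows of markers at the floor and of markers with many reads both held these letters. TGTGGT, the core bound by RUNX proteins, was present for ITGAM and CD86 (13.1% of all windows), and TTGCNNAA, a C/EBP core, for CD68 and CD163 (10.5%), each searched on both strands. TTCNNNGAA, the palindrome bound by STAT proteins, was present for CD14 alone of the 7 (7.66% of all windows). In the window of ITGAM the TGTGGT that begins at 25 and the TTCCTC that begins at 30 share 1 base, and no other matches of different motifs overlapped in the 8 windows. A match is a description of these letters, not a bound site.

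**Figure D1:**
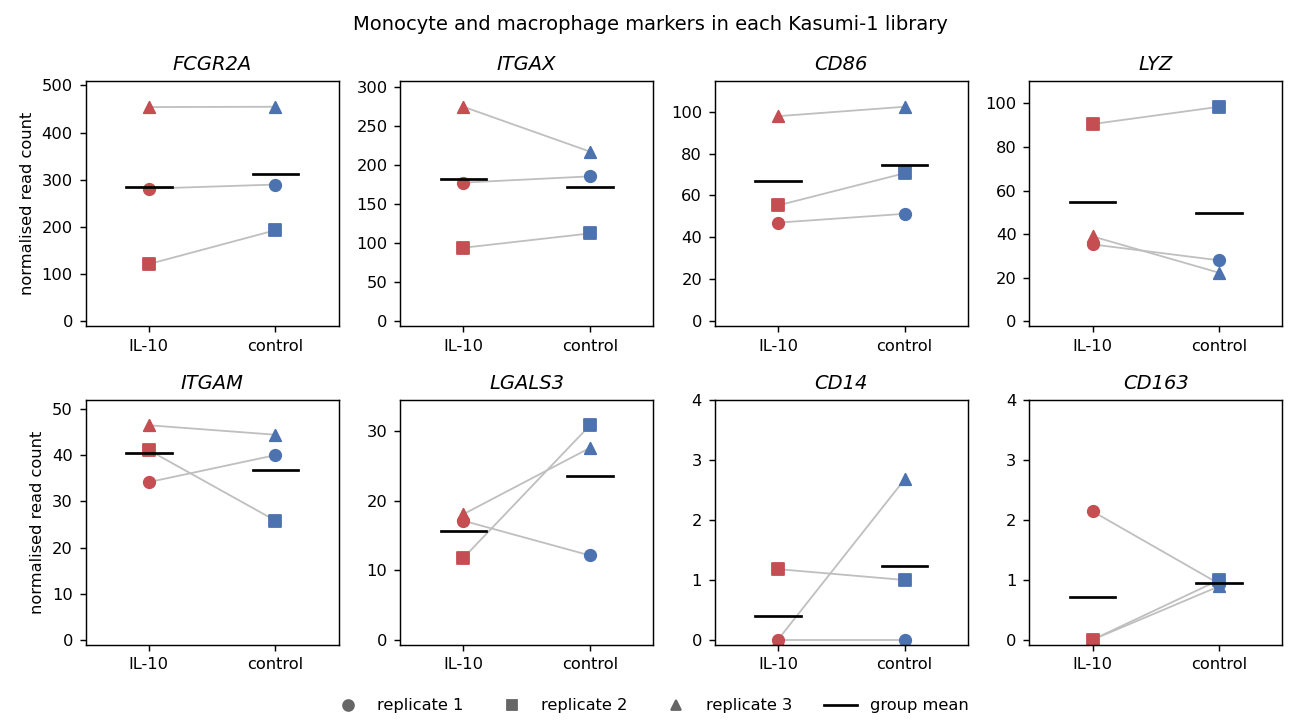
Normalised read count (y axis, linear, a separate scale for each gene) of the 8 markers with a row, in IL-10 (red) and control (blue) libraries. Symbols mark the replicate number, grey lines join libraries of the same number and black bars are group means (n = 3 each). FCGR2A spans 121 to 454 with IL-10 and 193 to 455 in control, and CD14 and CD163 stay under 3.

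FCGR2A was the most abundant marker and differed more between replicates than between treatments. FCGR2A (ENSG00000143226, chromosome 1, 161505430 to 161524013, plus strand) encodes CD32A, the activating low-affinity receptor for immunoglobulin G. It had 281, 121 and 454 normalised reads in IL-10 replicates 1, 2 and 3, against 289.7, 193 and 455 in control replicates 1, 2 and 3. In both groups replicate 3 was high and replicate 2 low, and the groups overlapped. The means were 285 ± 167 with IL-10 and 312 ± 132 in control (SD, n = 3 each), a log2 fold change of -0.24 (SE 0.47, 95% interval -1.31 to 0.83, adjusted p = 0.982 in limma). The log2 ratio of IL-10 over control was -0.04 in replicate 1, -0.67 in replicate 2 and -0.00 in replicate 3. Leaving out 1 library moved the log2 fold change between -0.67 (without IL-10 replicate 3) and 0.28 (without IL-10 replicate 2), with -0.54 without control replicate 2 and 0.08 without control replicate 3.

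FCGR2A shares long stretches of sequence with FCGR2B, the inhibitory receptor, and with FCGR2C, and how reads were split among them is uncertain. FCGR2B had 343, 31.7 and 752 normalised reads in the IL-10 libraries and 403, 41.8 and 709 in the control libraries. FCGR2C had 375, 97.6 and 642 with IL-10 and 362, 153 and 604 in control. All 3 genes were lowest in replicate 2 of both groups. FCGR2A made up 28.1%, 48.4% and 24.6% of the summed reads of the 3 genes in IL-10 replicates 1, 2 and 3, and 27.4%, 49.7% and 25.7% in control replicates 1, 2 and 3. Its share was thus highest in the replicate 2 libraries, where FCGR2B was scarce, and same-numbered libraries of the 2 groups lay within a few percentage points of each other.

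The integrin alpha chains stood at different levels, ITGAX well above ITGAM. ITGAX (ENSG00000140678, chromosome 16, 31355134 to 31382997, plus strand) encodes CD11c, the alpha chain of complement receptor 4. It had 177, 94.0 and 274 normalised reads in IL-10 replicates 1, 2 and 3, against 185, 112 and 217 in control replicates 1, 2 and 3, low in both replicate 2 libraries. Its log2 fold change was 0.01 (SE 0.40, 95% interval -0.89 to 0.90, adjusted p = 0.999 in limma), with log2 ratios of -0.06, -0.25 and 0.34 in replicates 1, 2 and 3. A value this close to 0 changed sign with equal library totals (-0.09) and without IL-10 replicate 1 (-0.04), IL-10 replicate 3 (-0.35) or control replicate 2 (-0.27). Without IL-10 replicate 2 it was 0.41.

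ITGAM (ENSG00000169896, chromosome 16, 31259967 to 31332892, plus strand) encodes CD11b, the alpha chain of complement receptor 3 and a standard marker of myeloid maturation. It had 34.2, 41.1 and 46.5 normalised reads in IL-10 replicates 1, 2 and 3 and 40.1, 25.9 and 44.5 in control replicates 1, 2 and 3. The groups overlapped, and control replicate 2 was the lowest library. The log2 fold change was 0.16 (SE 0.30, 95% interval -0.51 to 0.84, adjusted p = 0.982 in limma). Leaving out 1 library moved it between -0.06 (without control replicate 2) and 0.32 (without control replicate 3). ITGB2, the beta chain that pairs with both, had 2242, 2883 and 3241 normalised reads with IL-10 and 2389.6, 1652 and 3133 in control. Its level per kilobase of exon was 410.3 ± 74.4 with IL-10 and 352 ± 109 in control (SD, n = 3 each), above every alpha chain listed. Lymphocyte integrin ITGAL, the third partner of that chain listed, had 2.14, 7.05 and 7.60 with IL-10 and 2.79, 6.96 and 7.12 in control. ITGAD, a near copy of ITGAX, had no row.

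CD86 followed the replicate number with the least remainder of the 6 tested markers. CD86 (ENSG00000114013, chromosome 3, 122055366 to 122121139, plus strand) encodes a ligand of CD28 and CTLA4 by which antigen-presenting cells costimulate T cells. It had 47.0, 55.2 and 97.8 normalised reads in IL-10 replicates 1, 2 and 3, against 51.2, 70.6 and 102 in control replicates 1, 2 and 3. Each IL-10 library lay below its same-numbered control library, while replicate 3 was highest in both groups and the groups overlapped. The share of all genes with such an order in every replicate was not counted, so the order is not read as an effect. The log2 ratios were -0.12, -0.35 and -0.06, and the log2 fold change was -0.18 (SE 0.35, 95% interval -0.98 to 0.62, adjusted p = 0.982 in limma). With the replicate number as a block, the fit that uses such ratios, its adjusted p was 0.854, where 0% of all genes passed and 2.33% had an unadjusted p under 0.05. Leaving out 1 library moved the fold change between -0.49 (without IL-10 replicate 3) and 0.07 (without control replicate 3), with 0.03 when IL-10 replicate 1 was omitted and -0.42 when control replicate 1 was.

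LYZ ran the other way from FCGR2A and ITGAX. LYZ (ENSG00000090382, chromosome 12, 69348341 to 69354234, plus strand) encodes lysozyme, the bactericidal enzyme that monocytes and granulocytes secrete. It had 35.3, 90.5 and 38.9 normalised reads in IL-10 replicates 1, 2 and 3, against 27.9, 98.4 and 22.2 in control replicates 1, 2 and 3. Both replicate 2 libraries were high and the other 4 low, whatever the treatment. The log2 fold change was 0.33 (SE 0.57, 95% interval -0.96 to 1.62, adjusted p = 0.982 in limma), with log2 ratios of 0.33, -0.12 and 0.78 in replicates 1, 2 and 3. Leaving out 1 library moved it between -0.09 (without IL-10 replicate 2) and 0.98 (without control replicate 2), with -0.07 without control replicate 3, and it was 0.55 in replicates 1 and 3 alone.

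Other transcripts were high in the same libraries as LYZ. APOE, an apolipoprotein made by macrophages and by liver cells, had 47.0, 159.8 and 32.3 normalised reads with IL-10 and 42.9, 166 and 36.5 in control. TF, which encodes transferrin, had 0, 85.8 and 0 with IL-10 and 3.73, 208.8 and 0 in control, and APOA2 had 1.07, 68.2 and 0.95 against 0, 118 and 0. Each was high in replicate 2 of both groups and close to 0 elsewhere, except APOE, which was also read in the other 4 libraries. ALB, which encodes albumin, had 0, 31.7 and 0 with IL-10 and 0, 112 and 0.89 in control. All 6 hepatocyte markers listed had a row, and their summed level was 1328 to 1681 with IL-10 and 1321 to 1458 in control, most of it SERPINA1, which myeloid cells also make. SERPINA1 ran against the other pattern and was lowest in replicate 2 of both groups. It had 1315, 1158 and 1664 normalised reads in IL-10 replicates 1, 2 and 3, against 1300, 879 and 1435 in control replicates 1, 2 and 3. FGB stayed at 0 to 1.18 normalised reads. The part of these transcripts in the level of LYZ was not tested. Annotated exons of LYZ also share 599 bases with AC020656.1 on the other strand, which had no row, and LYZL1, LYZL2, LYZL4 and LYZL6, its relatives, had none either.

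**Figure D2:**
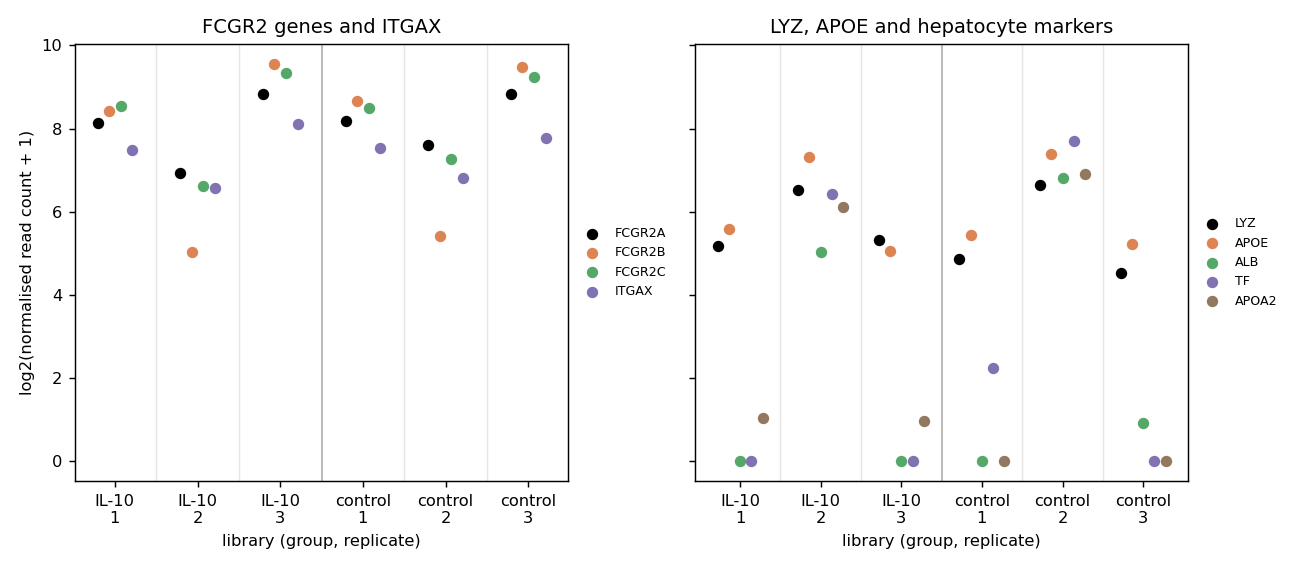
Values on the log2(normalised read count + 1) scale (y axis) in each library (x axis, IL-10 replicates left of the grey line, control replicates right of it), 1 point per gene and library. Left, FCGR2A, FCGR2B, FCGR2C and ITGAX are lowest in replicate 2 of both groups; right, LYZ, APOE and 3 hepatocyte markers are highest there.

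LGALS3 differed most between the groups in size, but not beyond the spread of the libraries. LGALS3 (ENSG00000131981, chromosome 14, 55124110 to 55145413, plus strand) encodes galectin-3, a sugar-binding lectin abundant in macrophages. It had 17.1, 11.8 and 18.05 normalised reads in IL-10 replicates 1, 2 and 3, against 12.1, 30.8 and 27.6 in control replicates 1, 2 and 3. Control replicate 1 lay among the IL-10 libraries, so the groups overlapped. The log2 fold change was -0.48 (SE 0.41, 95% interval -1.41 to 0.45, adjusted p = 0.982 in limma), and the log2 ratios of 0.47, -1.32 and -0.59 in replicates 1, 2 and 3 differed in sign. Leaving out 1 library moved it between -0.88 (without control replicate 1) and -0.24 (without control replicate 2). It was 0.12 with libraries weighted by their spread and -0.06 in replicates 1 and 3 alone.

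**Figure D3:**
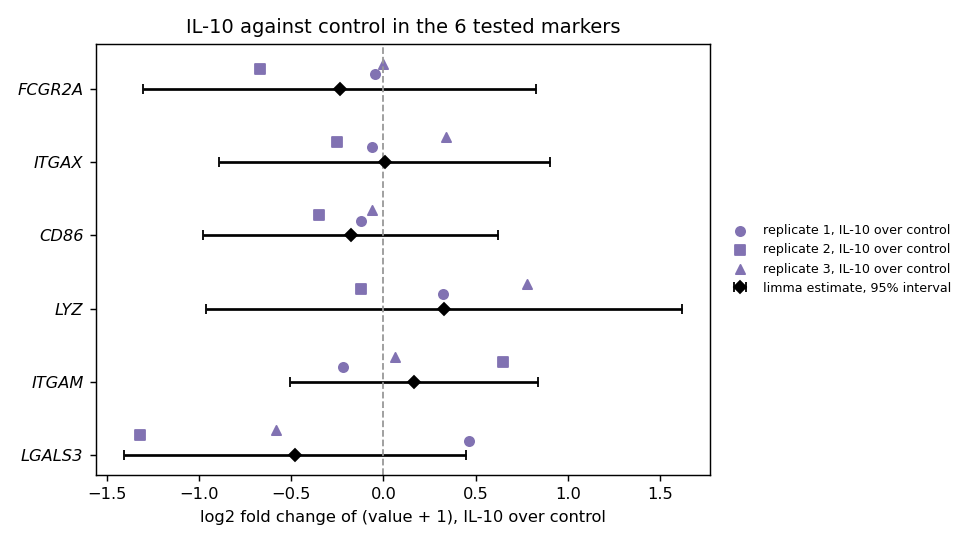
Log2 fold change of (value + 1), IL-10 over control (x axis), for the 6 tested markers (y axis). Diamonds and bars are limma estimates with 95% intervals and the symbols above them are the ratios within replicate 1, 2 and 3. Every interval spans 0, and the replicate 2 ratio is the lowest of the 3 for each gene except ITGAM, where it is the highest.

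Per kilobase of exon, a scale on which genes can be compared roughly, the markers spanned a wide range of levels. The length is that of all annotated exons of a gene merged, not of the transcripts expressed, so genes may be lowered by unequal amounts. FCGR2A averaged 53.7 ± 31.3 normalised reads per kb with IL-10 and 58.8 ± 24.9 in control, LYZ 31.1 ± 17.5 and 28.1 ± 24.1, ITGAX 25.7 ± 12.8 and 24.3 ± 7.59, and CD86 19.4 ± 7.94 and 21.8 ± 7.51 (SD, n = 3 each). Neighbours among these 4 overlapped in their ranges over the 6 libraries. Below them LGALS3 averaged 6.52 ± 1.42 with IL-10 and 9.81 ± 4.17 in control, and ITGAM 7.14 ± 1.09 and 6.47 ± 1.71, again with overlapping ranges. The lowest CD86 library, at 13.7, lay above the highest LGALS3 library, at 12.9, but the lowest LYZ library, at 12.6, lay below it, so LYZ and LGALS3 overlapped. CD14 and CD163 had at most 1.42 and 0.368 per kb in any library, below the lowest ITGAM library, at 4.55. By mean level per kb, FCGR2A stood above 57.6% of the genes tested and ITGAM above 29.1%.

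Most of the spread of ITGAX, CD86, FCGR2A and LYZ went with the replicate number. The sum of squares of log2(value + 1) over the 6 libraries was divided into treatment, replicate number and a remainder. The replicate number took 94.6% for ITGAX, 93.8% for CD86, 91.7% for FCGR2A and 90.4% for LYZ, but 48.3% for ITGAM and 24.3% for LGALS3. Treatment took 0.00373% for ITGAX, 3.15% for FCGR2A and 22.7% for LGALS3. Over the markers the median share of the replicate number was 91.0% and that of treatment 4.23%, beside 54.5% and 10.5% over all genes tested. The replicate number had the larger share in 81.8% of all genes, and it has 2 degrees of freedom where treatment has 1.

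**Figure D4:**
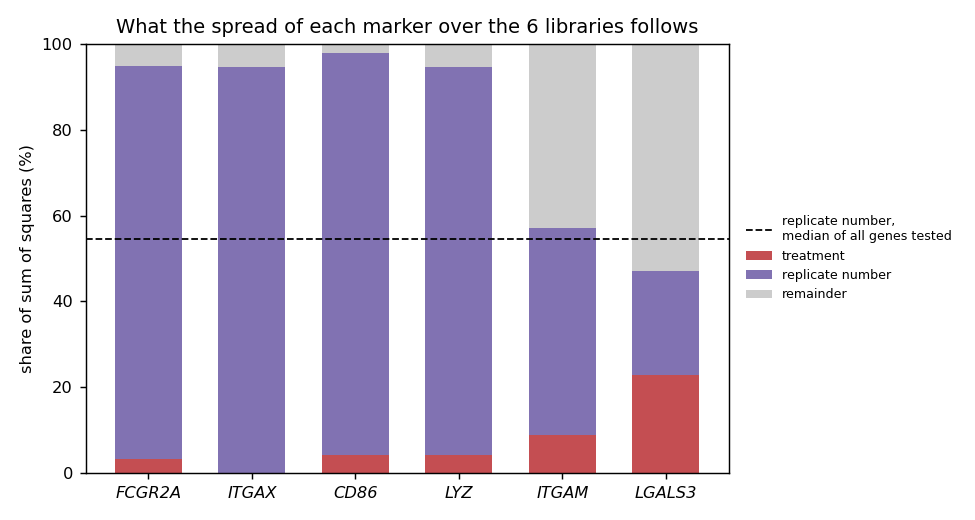
Share of the sum of squares over 6 libraries (y axis, percent) that goes with treatment (red), replicate number (purple) and neither (grey) for the 6 tested markers. The purple share is 90.4% or more in FCGR2A, ITGAX, CD86 and LYZ, and the dashed line is its median over all genes tested, 54.5%.

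The markers followed the replicates in different patterns. Over the 6 libraries, as a description of points that share treatment and replicate number, FCGR2A and ITGAX correlated at a Pearson r of 0.967, while LYZ correlated with FCGR2A at -0.831 and with ITGAX at -0.830. Among 11604 genes with a mean of at least 50, those most like FCGR2A over the 6 libraries were HSDL1, OGFRL1 and CREBRF, each with r = 0.998. HSDL1 had 742, 555 and 898 normalised reads with IL-10 and 751, 665 and 899 in control. The genes most like ITGAX were FAM107B (r = 0.997), PAPSS1 (0.995) and ZNF175 (0.995), and those most like CD86 were LINC00174 (0.987), ANXA1 (0.982) and SGCB (0.975). These values describe 6 libraries and carry no test.

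Other monocyte and macrophage genes, 51 in 6 lists, likewise held none that passed the test. Of these, 47 had a row and 35 were tested. In limma 0 were higher and 0 lower past the threshold, beside 0% of all genes. At an unadjusted p under 0.05 there were 0, beside 1.57% of all genes. Their log2 fold changes ran from -1.08 to 1.16 with a median of 0.05, beside 0.02 over all genes, with 22 positive and 13 negative. The groups overlapped in all 35, whereas they did not overlap in 5.87% of all genes. With shares this small, such counts do not set the lists apart from other genes. Their levels divided the lists. At most 3 reads in every library were found for 10 of the 47: the receptors FCGR3A, CD36, MRC1, MARCO and SIGLEC1, the complement genes C1QA and C1QC, the secreted S100A12 and FCN1, and the transcription factor KLF4. The mean over the 6 libraries was at or under 3 reads for 13 of the 47. Among those 13 was S100A8, with 0 to 4 reads, while S100A9 had 0 to 11. TLR4, CCR2, MSR1 and MNDA had no row. Other receptors of the same lists varied in level, and those named here were chosen after their values were seen. Over the 6 libraries LY96 had 2 to 13 reads, CLEC7A 3 to 13, CD209 2 to 9 and CX3CR1 7 to 23. MERTK had 12 to 31 and the ligand CD80 5 to 24. FCGR1A, TLR2 and CSF1R were well above the floor. FCGR1A, the high-affinity receptor for immunoglobulin G, had 784 to 983 normalised reads with IL-10 and 713 to 960.0 in control. TLR2, a receptor for bacterial lipoproteins, had 511 to 1083 with IL-10 and 762 to 1085 in control. CSF1R, the receptor for macrophage colony-stimulating factor, had 145 to 206 with IL-10 and 117 to 184 in control.

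Several genes of these lists stood above every marker. Per kilobase of exon the lowest mean among CD33, CD4, AIF1 and CTSS was that of CTSS, with 215 ± 13.4 with IL-10 and 224 ± 13.3 in control (SD, n = 3 each). CD33, a sialic-acid-binding receptor of myeloid progenitors and monocytes, had 1859.6, 2280.2 and 1599 normalised reads in IL-10 replicates 1, 2 and 3 and 1904, 2030.6 and 1584 in control. CD4, present on monocytes as well as T cells, had 2397, 2385 and 2776 with IL-10 and 2376, 1584 and 2806 in control. Neither receptor separated the groups. AIF1, a macrophage calcium-binding protein, had 2099, 2066 and 1623 with IL-10 and 2027, 1792 and 1747 in control, and the protease gene CTSS 911, 849 and 962 against 885, 990.4 and 972. These 4 genes overlapped between the groups. HMOX1, the haem-degrading enzyme that acts downstream of CD163 in macrophages, had 11.8, 24.7 and 12.3 normalised reads with IL-10 and 13.04, 16.9 and 28.5 in control.

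The regulators SPI1 and CEBPB were expressed, with IL-10 replicate 2 highest. SPI1, which encodes PU.1, had 5467, 12256 and 5345 normalised reads in IL-10 replicates 1, 2 and 3, against 5757, 6439.9 and 5569 in control replicates 1, 2 and 3. CEBPB had 967, 1846 and 1094 with IL-10 and 994, 1092 and 1163 in control. The list of 7 transcription factors, of which 6 were tested, had a median log2 fold change of 0.24, and its median log2 ratio was -0.06 in replicate 1, 0.64 in replicate 2 and -0.07 in replicate 3. LAMP1, a lysosomal membrane protein like macrosialin, was also highest in IL-10 replicate 2, with 5065, 7853 and 4466 with IL-10 and 4995, 5270.5 and 4595 in control, while LAMP2 was lowest in that library, with 3034, 2471 and 3338 against 2907, 3081 and 3353. The part of this library, which stood apart, in these values was not tested.

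**Figure D5:**
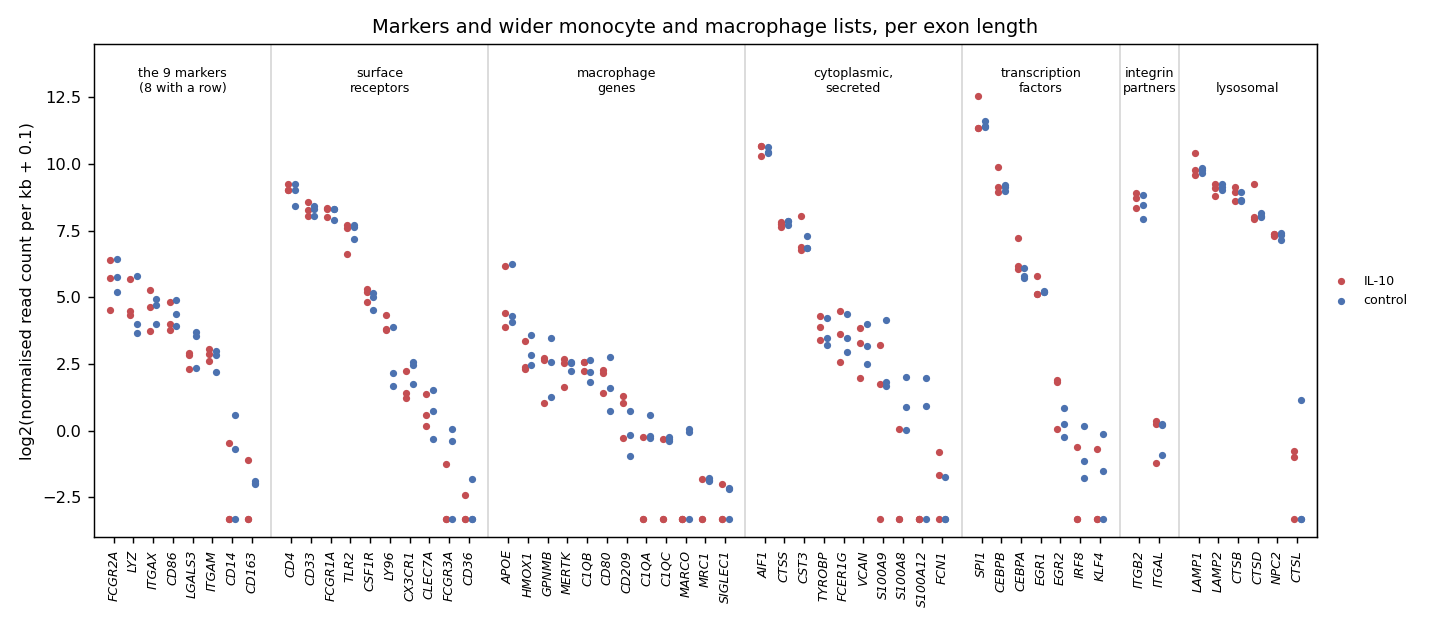
Level per exon length, as log2(normalised read count per kb + 0.1) (y axis), of the 8 markers with a row and of 47 genes of 6 wider monocyte and macrophage lists (x axis), 1 point per library, IL-10 left (red) and control right (blue). Points at the bottom edge are libraries with 0 reads; the 2 groups overlap in every gene tested.

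Lists of markers of other cell types were also read in all libraries, though single genes of them had 0 reads in some. GATA1 had 0 in IL-10 replicate 2, as had CD2 in control replicate 1. MPO, the azurophil granule gene of granulocytic precursors, had 139394, 160649 and 67839 normalised reads with IL-10 and 151854, 89132 and 66945 in control, or 34778 ± 13790.1 per kb with IL-10 and 29111 ± 12489 per kb in control (SD, n = 3 each). Summed levels of the neutrophil granule list, with 6 of 6 genes present, were 70084 to 164007 with IL-10 and 69126 to 156125 in control. Those of the T and NK cell list (5 of 5) were 1778 to 2659 and 1645 to 2399, those of the B cell list (4 of 4) 996 to 1634 and 999 to 1062, and those of the epithelial list (4 of 4) 1587 to 1947 and 1854 to 1906. In the same order of groups, the mast cell list (3 of 4), which holds KIT, had 29325 to 53163 and 38021 to 54556, the erythroid and megakaryocyte list (4 of 6) 566 to 577 and 391 to 579, and the fibroblast and endothelial list (5 of 6) 55.6 to 110.2 and 58.7 to 112. CD34, the progenitor marker, ranged over 11577 to 14919 with IL-10 and 11415 to 13483 in control. Most of the granule sum was MPO: ELANE had 4.70 to 159 normalised reads with IL-10 and 8.95 to 139.7 in control, and LTF, a gene of late granules, had at most 2 reads in any library. CD3D made up most of the T and NK cell sum and EPCAM most of the epithelial sum. Nearly all of the mast cell sum was KIT, while TPSAB1 and HDC had at most 23.7 and 21.4 normalised reads in any library. ITGA2B likewise made up nearly all of the erythroid and megakaryocyte sum, with at most 10.7 for GATA1, 18.8 for HBB and 1.99 for HBA1. Within the epithelial list, KRT8 had 4.28, 87.0 and 7.60 with IL-10 and 11.2, 156 and 9.79 in control, high in the replicate 2 libraries. Of the defining monocyte markers, CD14 and CD163 were at or near 0 and ITGAM had 25.9 to 46.5.

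The intervals given come from the fit without the replicate block, in which the spread that went with the replicate number counts as error. For the 6 tested markers their 95% interval of the log2 fold change reached 1.62 at the upper end, in LYZ, and -1.41 at the lower end, in LGALS3. In genes with a mean of at least 50 the median interval reached 0.49 to either side. When only replicates 1 and 3 were kept with the replicate block, a fit on 4 libraries with 1 residual degree of freedom, 0.0542% of 20308 genes passed (4.23% at an unadjusted p under 0.05), and no marker was among them. In that fit the log2 fold changes were 0.55 for LYZ, -0.08 for ITGAM, 0.14 for ITGAX, -0.02 for FCGR2A, -0.06 for LGALS3 and -0.09 for CD86. Without IL-10 replicate 2 the markers not yet given had 0.15 (ITGAM), -0.30 (LGALS3) and -0.08 (CD86).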

How the data were processed

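RNA of Kasumi-1 cells was extracted with Trizol and made into Illumina TruSeq libraries, per the labels' protocols. The deposited table carries FPKM in its name. The deposited values, however, were a normalised signal, namely reads over 1 size factor per library, since 100% were whole multiples of a step within 0.01 read. The plan assumed FPKM and its test on the log scale was kept. GRCh38, hg38 and edgeR 3.18.1 are named in the submitters' processing notes. No source used here gives the aligner, the counter or the handling of strand. Identifiers were matched to symbols (26883 of 27576) and to GENCODE 29 (27052), whose coordinates and exon lengths are used.

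The test was limma 3.58.1 in R 4.3.3 on log2(value + 1), with its trend option, over 21946 genes (minimum value 1 in 3 or more libraries), two-sided, at a Benjamini-Hochberg adjusted p under 0.05. Fold changes on that scale understate those of low genes. Depth in reads was recovered from the steps. The quasi-likelihood test of edgeR 4.0.16 and DESeq2 1.42.0 served as alternatives on those reads. The limma fits, with and without the replicate block, and edgeR were also run on simulated counts. Those had no replicate effect and no GC trend, so the runs do not show how the fits behave on libraries like these. Same-numbered libraries deviated together from their group means, with correlations of 0.367, 0.605 and 0.726, each over 0.1. The numbers were therefore taken from these values to pair the samples. Differently numbered libraries also passed 0.1 in IL-10 replicate 1 with control replicate 3 (0.176) and IL-10 replicate 3 with control replicate 1 (0.208). That bar alone thus does not single out the pairs of replicates 1 and 3, though same-numbered libraries correlated highest. Alternatives were other pseudocounts, filters, scalings, weights, GC correction, the block, and leaving out libraries. The genes named are the 9 markers, near copies, cell line and receptor genes, and other-type markers. Added are the 2 genes of highest mean per kb in each wider list. So are the 3 genes most like each of the 3 markers of highest mean. TF, APOA2, ALB, SERPINA1 and FGB were picked from their list after values were seen. The 10 genes at the floor and the other genes named beside them were picked likewise. A gene of the transcription factor list is not reported here. Members and lists were chosen with earlier results of these data known.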

Additional observations from a re-analysis of the deposited data

How the results depend on the processing

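No marker passed the threshold under any of 24 alternatives (smallest adjusted p of a marker 0.804), and the count of genes past it stayed at 0 in all but 1. The exception was replicates 1 and 3 only with the replicate block, with 11 genes; the same 4 libraries without the block gave 0. With the replicate block, the 6 libraries gave 0 genes and no call changed. Leaving out 1 library gave 0 genes each time.

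Of 144 comparisons of a marker with its value under an alternative, 19 changed sign, none with a call: ITGAX in 7, ITGAM in 5, LYZ, FCGR2A and CD86 in 2 each and LGALS3 in 1. Beyond those given with the genes, ITGAX had -0.11 with GC correction and -0.15 in edgeR leaving out control replicate 2, a library whose step of 0.994 lies close to 1, an alternative chosen after seeing the data. ITGAM had -0.11 with sample weights and -0.07 in that edgeR fit, in which LYZ had 1.10. The cause was not tested. The median over all genes was -0.08 with equal totals and 0.02 with the deposited scaling. Depth limits CD14 and CD163, at or under 3 reads per library.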
